A study of Mus musculus with 6 samples.

Results

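The genes of the proteasome were compared between germinal vesicle (GV) oocytes of Control mice and of mice that lack Rpa1 in the oocyte. Members were the genes whose symbol is Psma, Psmb, Psmc, Psmd, Psme, Psmf or Psmg followed by a number, which gave 48 of the 49315 genes in the table. They were sorted by textbook role into 7 alpha and 7 beta subunits of the core, 3 immunoproteasome subunits, 2 tissue-specific core subunits, 6 ATPases and 11 non-ATPases of the regulatory particle, 7 assembly factors, 4 activators and 1 inhibitor. The GV oocyte is the immature egg with an intact nucleus. There were 3 Control mice and 3 Rpa1 OcKO (oocyte-specific conditional knockout) mice, 4 to 5 weeks old and primed with PMSG (pregnant mare serum gonadotropin, a hormone that drives follicle growth), and 1 library per mouse from around 20 pooled oocytes without cumulus cells. All 6 samples share the age range and the priming. The allele deleted, the Cre driver and the genotype of the Control mice were not given in the sources used here. Each replicate is a mouse, so the spread between replicates includes animals, the oocytes sampled and library preparation together.

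The proteasome is the protease that breaks down proteins tagged with ubiquitin. Its core is a barrel of stacked rings: alpha subunits form the outer rings and gate the entrance, and beta subunits form the inner rings, where Psmb5, Psmb6 and Psmb7 carry the catalytic sites. A regulatory particle, made of a base and a lid, caps the barrel. Its base holds a ring of ATPases (Psmc genes) that unfold the substrate. Non-ATPases (Psmd genes) of the base and lid receive the substrate and remove its ubiquitin. Assembly chaperones (Psmg1 to Psmg4, Psmd5, Psmd9 and Psmd10) build the particle and are not part of the finished one. In cells exposed to interferon, Psmb8, Psmb9 and Psmb10 replace the constitutive catalytic subunits, and the activator formed by Psme1 and Psme2 rises with them. In the oocyte, destruction of cyclin B and securin by the proteasome drives the exit from the meiotic divisions.

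Depth was similar across the 6 libraries, at 36280148 to 44575222 counts. Rpa1, the targeted gene, was at 156, 155 and 140 CPM in the Control libraries and at 7.76, 4.14 and 6.84 CPM in the OcKO libraries (log2 ratio of OcKO to Control -4.59, SE 0.31, edgeR adjusted p = 0.0064), which matches the labels. CPM (counts-per-million) values were scaled between libraries by the TMM method, and a positive log2 fold change means higher in OcKO. Values of cell type markers are CPM of the library total, without TMM scaling. The 13 oocyte markers summed to 30000 to 45700 CPM in Control and 26600 to 33100 CPM in OcKO. The 12 granulosa and cumulus markers summed to 60.8 to 118 CPM in Control and 98 to 138 CPM in OcKO. These sums were carried largely by Cyp19a1 (9.26 to 33.7 CPM over the libraries), Nr5a2 (11.9 to 43.7 CPM) and Inha (9.94 to 44.5 CPM). The granulosa transcription factor Foxl2 was at 0 in every Control library and at most 0.0551 CPM elsewhere. The 5 endothelial markers summed to 102 to 154 and 146 to 247 CPM, carried by Pecam1 and Tek, with Cdh5 at 0 in 5 of the 6 libraries. The 8 immune markers summed to 3.71 to 12.2 and 1.28 to 8.57 CPM, the 8 theca and stroma markers to 2.31 to 7.40 and 2.07 to 5.41 CPM, and the 5 erythroid markers to 0.345 to 2.61 and 0.142 to 0.689 CPM. The part of these cells in the results was not tested. In these pooled samples, fewer cells of a type and less RNA per cell cannot be told apart.

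Transcripts of most constitutive core and regulatory genes were abundant, with Psmd13 in Control as the lowest, at the 39.7th percentile. Levels were compared between genes as TPM (counts per base of exon, scaled to the same total in each library). The median of the 31 genes lay at the 93.3rd percentile of all tested genes in Control, where the median tested gene had 9.24 TPM. All 48 members together summed to 8172, 7108 and 8877 TPM in the Control libraries and 9316, 10010 and 9887 TPM in the OcKO libraries. Proteasome transcripts thus made up 0.711% to 0.888% of TPM in Control and 0.932% to 1.00% in OcKO. The OcKO sums all lay above the Control sums, at 9739 ± 371 against 8052 ± 890 TPM (SD, n = 3), a ratio of 1.21. This scale matters: the median tested gene also had a higher TPM in OcKO, by 0.15 on the log2 scale, and as TMM-scaled CPM the summed ratio was 1.08 and the groups overlapped. A two-sided exact permutation test of 3 against 3 libraries cannot give a p under 0.10 for such a sum.

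**Figure D1:**
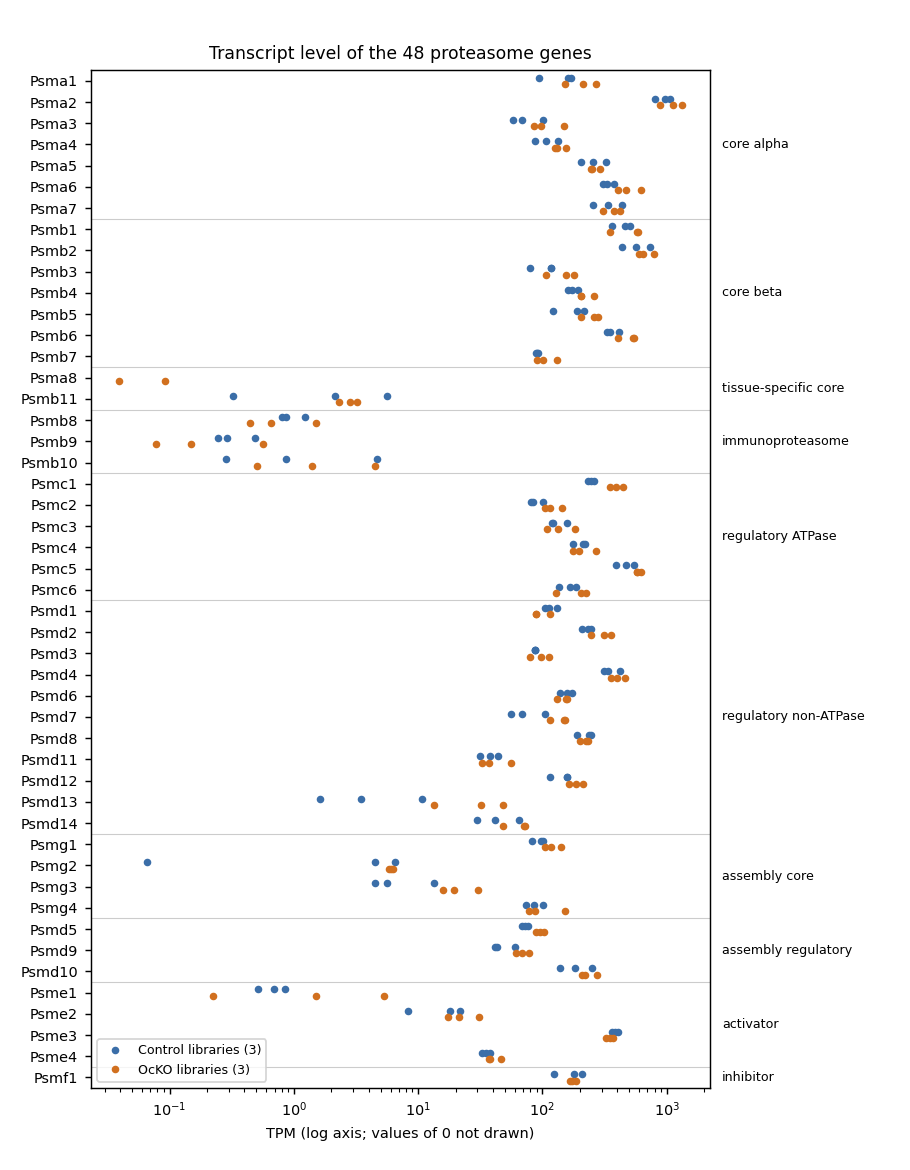
Level of each of the 48 proteasome genes in TPM on a log axis, with 1 point per library (3 Control, 3 OcKO) and genes grouped by role; values of 0 are not drawn. Core and regulatory genes other than Psmd13 sit at 29.8 TPM or more in every library, while the immunoproteasome subunits, Psmb11 and Psme1 sit below 6 TPM in every library.

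By edgeR, the main test, no proteasome gene was called, and by DESeq2 2 were. Of the 48 members, 47 passed the filter on low counts and entered the fit, which covered 16060 genes; Psma8 did not. At a Benjamini-Hochberg adjusted p under 0.05 in edgeR's quasi-likelihood test, 0 members were higher and 0 lower, against 0.137% of all tested genes called higher and 0.00623% called lower. At an unadjusted p under 0.05, 4 members were higher (Psmc1, Psmd13, Psmd7 and Psmg3; 8.51% of the 47) and 0 lower, against 5.93% and 5.21% of all genes. DESeq2 called 2 members higher, Psmd13 (adjusted p = 0.0312) and Psmc1 (adjusted p = 0.0415), which is 4.26% of the members, and 0 lower. By the same tool 2.99% of genes were called higher and 1.71% lower. For 5 members each OcKO library exceeded each Control library (10.6%, against 10.7% of all genes), and for 2 members each was lower (4.26%, against 8.67%). Of these shares, the non-overlapping one above was near that of all genes, and the lower ones were below it (0 members against 5.21% by unadjusted p, and 4.26% against 8.67% without overlap).

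The differences of most members were small and bounded. Log2 fold changes were positive in 34 of the 47 tested members (72.3%), against 50.8% of all tested genes, with a median of 0.16 against 0.01. With scaling by library size alone, 42 members were positive and the medians were 0.32 for the members and 0.18 for all genes, so that the distance between them was 0.15 and 0.14 under the 2 scalings. For 32 of the 47 members the 95% interval of the difference lay within 2-fold in either direction, which held for 19.8% of all tested genes. The 31 constitutive genes had a median absolute log2 fold change of 0.20, against 0.48 over all genes. Both comparisons depend on level, since the spread of such values is wider at low counts. The constitutive genes had a median at the 93.3rd percentile of tested genes in Control. Genes of like level were not compared, so these values do not set the proteasome genes apart from other abundant genes. Of the 15 members with wider intervals, 9 were immunoproteasome, tissue-specific, assembly or activator genes, such as Psmb10, Psmg2 and Psme1. Transcript counts say nothing of the amount of assembled proteasome.

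**Figure D2:**
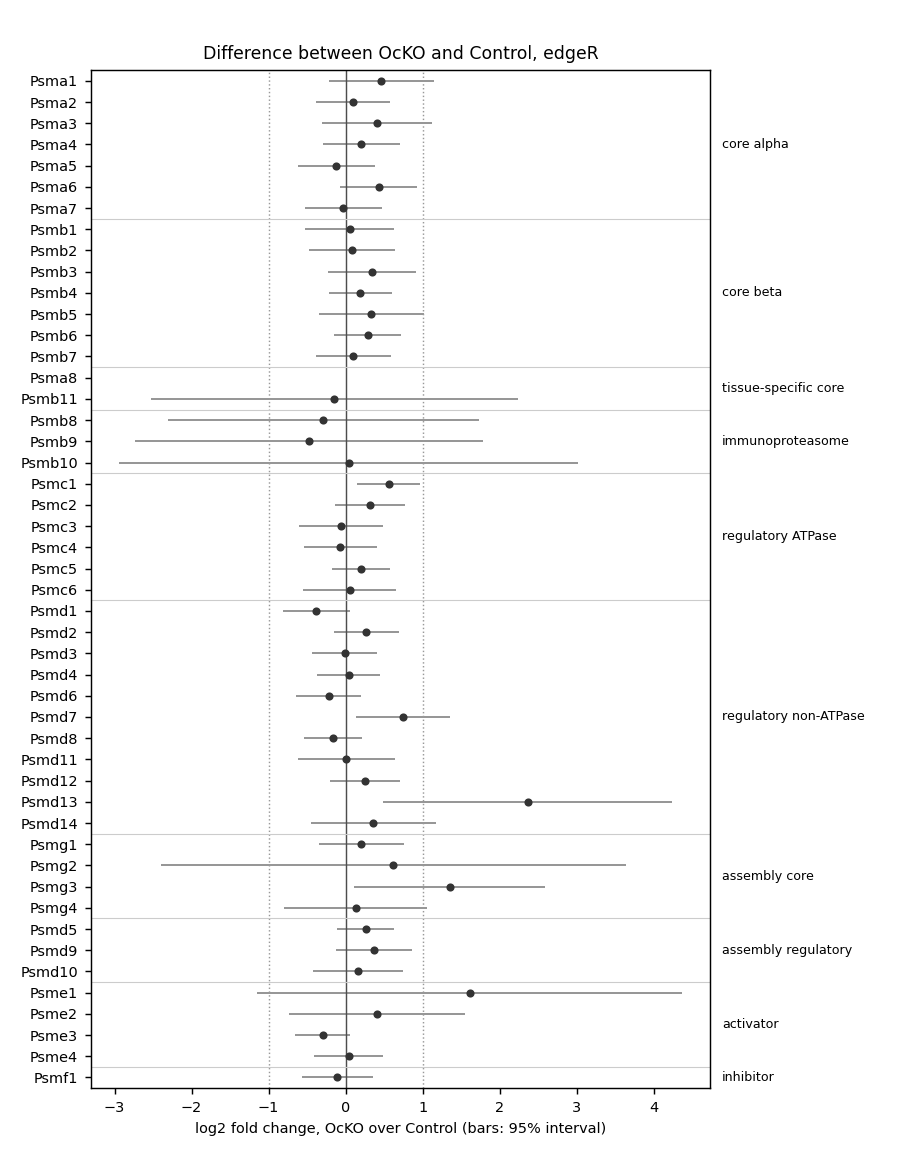
Log2 fold change of OcKO over Control for the 47 tested proteasome genes (points) with the 95% interval of edgeR's quasi-likelihood fit (bars); dotted lines mark 2-fold in either direction, and Psma8 was not tested. Most points lie within 0.5 of 0, and the intervals of Psmd13, Psmd7, Psmc1 and Psmg3 lie above 0 before adjustment over all genes.

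The core subunits had positive differences in 12 of 14 genes, with none called. The alpha subunits summed to 2309, 1826 and 2511 TPM in Control and 2347, 3186 and 2572 TPM in OcKO, and the groups overlapped. Their median log2 fold change was 0.20, with 5 of 7 positive, and leaving out single libraries moved it to 0.37 (Control replicate 3), 0.13 (Control replicate 2) or 0.11 (OcKO replicate 2). In addition, 5 of the 7 alpha genes had their highest CPM in OcKO replicate 2. Psma6 (chromosome 12, 55384222 to 55418454, plus strand, GRCm38), an alpha-ring subunit, was at 139, 144 and 163 CPM in Control and 188, 252 and 160 CPM in OcKO. The lowest OcKO library lay just below the highest Control library, and the log2 fold change was 0.43 (SE 0.21, edgeR adjusted p = 0.528). Psma1, another subunit of the ring, was at 161, 105 and 177 CPM against 203, 264 and 142 CPM (0.46, SE 0.29, edgeR adjusted p = 0.651), with the groups overlapping. Psma2 had the highest TPM of all members, 948 in Control and 1110 in OcKO, and Psma3 the lowest of the core in Control, at 75.9 TPM. Although each subunit has the same number of copies in the particle, transcript levels of the 14 core genes spanned 12.5-fold in Control and 10.3-fold in OcKO.

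All 7 beta subunits had positive differences, between 0.05 and 0.34, with a median of 0.19 and none called. Their summed TPM was 1824, 1823 and 2159 in Control and 2385, 2235 and 2586 in OcKO. These sums did not overlap, whereas the same sums as CPM did, at 936.7, 1028 and 1128 against 1158, 1110 and 1236. Psmb3, a structural beta subunit, was at 91.7, 70.1 and 95.5 CPM in Control and 114, 80.7 and 131 CPM in OcKO (log2 ratio 0.34, SE 0.24, edgeR adjusted p = 0.706). OcKO replicate 2 lay inside the Control range. Psmb6 (chromosome 11, 70525367 to 70527858, plus strand, GRCm38) carries the caspase-like activity and was at 209, 248 and 275 CPM against 321, 253 and 321 CPM (0.29, SE 0.19, edgeR adjusted p = 0.66). Here too OcKO replicate 2 lay among the Control libraries. Psmb5, the chymotrypsin-like subunit and the target of bortezomib, was at 56.7, 72.1 and 37.2 CPM against 73.4, 58.4 and 77.3 CPM (0.33, SE 0.29). Of the 50-base stretches of Psmb5, 54.1% also occur in other annotated genes, mostly Gm3375, so its count depends on how such reads were assigned. Psmb7, the trypsin-like subunit, had a log2 fold change of 0.10 (SE 0.21).

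**Figure D3:**
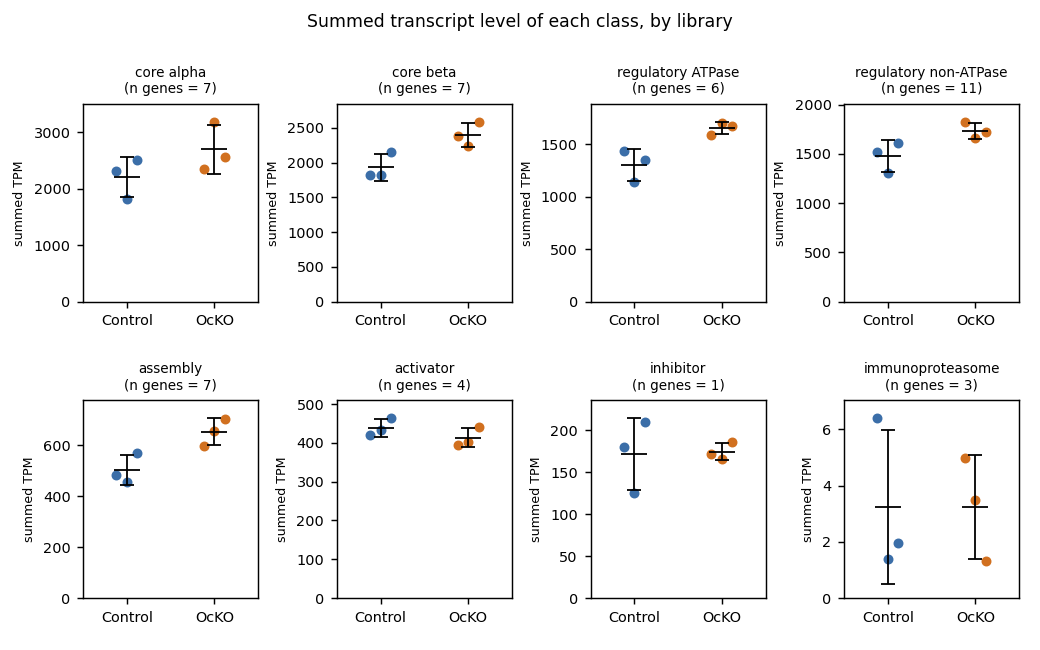
Summed TPM of each class of proteasome genes in the 3 Control and 3 OcKO libraries (points), with the mean and SD (bars) and the number of genes in each panel. Every OcKO point is above every Control point for core beta, ATPase, non-ATPase and assembly genes, and the groups overlap for core alpha, activator, inhibitor and immunoproteasome genes.

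The immunoproteasome subunits were near the limit of detection in both groups. Psmb9, which replaces Psmb6, held 22, 13 and 13 counts in the Control libraries and 4, 31 and 7 counts in the OcKO libraries, or 0.487, 0.247 and 0.291 against 0.0776, 0.564 and 0.148 TPM. In every library Psmb6 exceeded it by 674-fold to 6870-fold in TPM. Psmb8, the replacement for Psmb5, was at 1.24, 0.862 and 0.808 TPM in Control and 0.441, 1.51 and 0.652 TPM in OcKO, and Psmb5 exceeded it by 134-fold to 594-fold. Psmb10, the replacement for Psmb7, varied most, at 4.66, 0.285 and 0.864 TPM against 4.46, 1.41 and 0.501 TPM, with Psmb7 from 20.0-fold to 320-fold higher. The highest and the lowest Psmb10 values were both in Control libraries. OcKO replicate 1 had the lowest Psmb8 and Psmb9 of the 6 libraries and the second-highest Psmb10, so the 3 genes did not rank the libraries alike.

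No difference was detectable in the immunosubunits with these libraries. The log2 fold changes were -0.29 for Psmb8 (SE 0.86, edgeR adjusted p = 0.95), -0.48 for Psmb9 (SE 0.97, edgeR adjusted p = 0.918) and 0.04 for Psmb10 (SE 1.28, edgeR adjusted p = 0.996). The 95% intervals ran from -2.30 to 1.73, from -2.74 to 1.78 and from -2.94 to 3.02, so changes of over 2-fold in either direction lay within them. All 3 values moved with single libraries: over the 6 fits that leave out 1 library, Psmb8 ran from -0.94 (without OcKO replicate 2) to 0.03 (without OcKO replicate 1). Psmb9 ran from -1.68 to -0.05 without the same libraries, and Psmb10 from -1.09 (without OcKO replicate 1) to 1.72 (without Control replicate 1). Part of Psmb9 (212 exonic bases) overlaps Tap1 on the other strand and part of Psmb8 (186 bases) overlaps Gm20496, and the library kit does not mark strand. The leukocyte marker Ptprc stood at 1.43, 1.91 and 1.83 CPM of the library total in Control and 0.640, 1.14 and 1.85 CPM in OcKO. Its part in the immunosubunit counts was not tested.

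The tissue-specific core subunits were low as well. Psma8, the alpha subunit of the testis proteasome, had 0 counts in 4 libraries, 1 in OcKO replicate 2 and 2 in OcKO replicate 3. A count of 0 allows up to 3 counts, or 0.0711 to 0.0819 CPM of the library total, in the 4 libraries, for counting error only. Psmb11, the catalytic subunit of the thymus proteasome, was at 0.325, 5.64 and 2.14 TPM in Control and 2.31, 2.84 and 3.23 TPM in OcKO. All OcKO libraries lay within the Control range. The log2 fold change of Psmb11 was -0.15 (SE 1.02, edgeR adjusted p = 0.98), but 0.05 with scaling by library size alone and 1.09 without Control replicate 2.

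**Figure D4:**
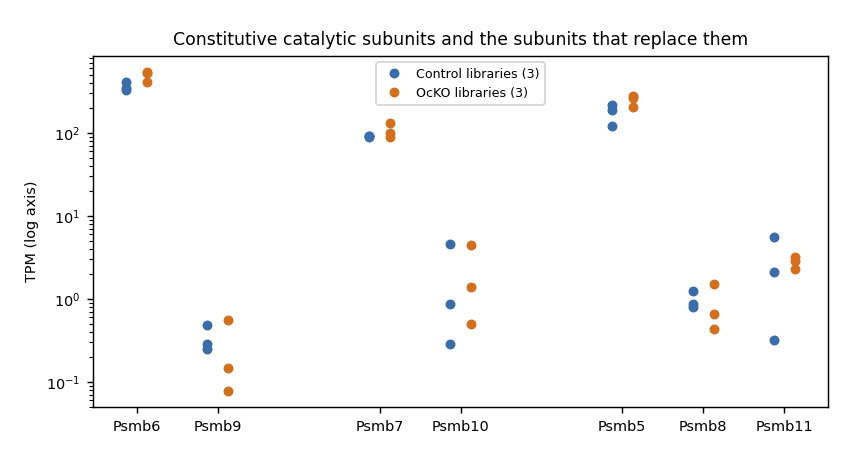
TPM on a log axis of the constitutive catalytic subunits Psmb6, Psmb7 and Psmb5 and of the subunits that can replace them (Psmb9, Psmb10, and Psmb8 or Psmb11), with 1 point per library. Each constitutive subunit lies at 88.3 TPM or more in every library and each replacement at 5.64 TPM or less.

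The regulatory ATPases held the gene with the smallest unadjusted p of all members. Psmc1 (ENSMUSG00000021178, chromosome 12, 100110186 to 100123364, plus strand, GRCm38), one of the ring ATPases that open the core's gate, was at 133, 134 and 132 CPM in Control and 172, 225 and 190 CPM in OcKO. Each OcKO library lay above the tight Control range (133 ± 1.21 against 196 ± 26.9 CPM, SD, n = 3). The log2 fold change was 0.56 (SE 0.17, 95% interval 0.15 to 0.96), which edgeR did not call (adjusted p = 0.269) and DESeq2 did. It lay between 0.48 and 0.63 with any 1 library left out. The gene model Gm9575 shares 50-base stretches with Psmc1 and held 0.965, 0.765 and 0.720 CPM in Control and 1.44, 1.76 and 1.30 CPM in OcKO. Psmc2, a neighbouring ring subunit, was at 174, 155 and 147 CPM against 169, 240 and 183 CPM (0.31, SE 0.20, edgeR adjusted p = 0.647), with OcKO replicate 1 inside the Control range. Of the other 4 ATPases, Psmc5 and Psmc6 had values of 0.20 and 0.05, and Psmc3 and Psmc4 of -0.06 and -0.07. The class summed to 1430, 1136 and 1348 TPM in Control and 1588, 1699 and 1671 TPM in OcKO, without overlap also as CPM.

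Among the non-ATPases of the base and lid, 1 gene stood apart by its level. Psmd13 (ENSMUSG00000025487, chromosome 7, 140881968 to 140898643, plus strand, GRCm38), a scaffold subunit of the lid, was at 1.88, 13.8 and 4.09 CPM in Control and 52.4, 15.0 and 34.0 CPM in OcKO. The groups did not overlap, but Control replicate 2 and OcKO replicate 2 were close. In Control it averaged 5.27 TPM, at the 39.7th percentile of tested genes, while the next lowest gene of the regulatory particle, Psmd11, averaged 37.7 TPM. In OcKO Psmd13 averaged 31.2 TPM, against 41.8 TPM for Psmd11. The log2 fold change of 2.36 (SE 0.80, 95% interval 0.48 to 4.24) was the largest of the members and was called by DESeq2 but not by edgeR (adjusted p = 0.312). With any 1 library left out it lay between 1.89 and 3.54. Psmd13 shares 342 exonic bases (10.1%) with Sirt3, a mitochondrial deacetylase gene on the other strand. Sirt3 was at 8.19, 8.68 and 2.59 CPM in Control and 4.66, 9.77 and 20.5 CPM in OcKO (0.84, SE 0.74). In OcKO, replicate 1 had the most Psmd13 and the least Sirt3, while in Control, replicate 2 had the most of both. The part of Sirt3 reads in the Psmd13 counts was not tested.

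The remaining non-ATPases had differences in both directions. Psmd7 (ENSMUSG00000039067, chromosome 8, 107580381 to 107588464, minus strand, GRCm38) pairs with the deubiquitinase of the lid, and was at 80.3, 48.4 and 54.1 CPM in Control and 110, 112 and 83.4 CPM in OcKO. OcKO replicate 3 lay just above Control replicate 1. The log2 fold change was 0.74 (SE 0.26, 95% interval 0.13 to 1.35, edgeR adjusted p = 0.333). Its partner Psmd14, the lid deubiquitinase, was at 28.6, 44.1 and 63.9 CPM against 65.9, 66.8 and 43.2 CPM (0.36, SE 0.35), with the groups overlapping. Psmd6, a lid subunit, was lower in all OcKO libraries as CPM, at 137, 122 and 129 CPM against 116, 122 and 96.1 CPM (the replicates 2 differ only past this rounding), with a log2 fold change of only -0.22 (SE 0.18, edgeR adjusted p = 0.744). As TPM the groups overlapped, at 173, 138 and 158 against 155, 158 and 130. With scaling by library size alone the log2 fold change was -0.06. Psmd1, the large scaffold of the base, was at 276, 289 and 333 CPM against 209, 276 and 206 CPM (-0.38, SE 0.19, edgeR adjusted p = 0.529). The ubiquitin receptor Psmd4 had a value of 0.04 (SE 0.18). Over the 11 genes the median was 0.04, with 7 positive and 4 negative, and it lay between 0.08 and 0.18 with any 1 library left out (highest without Control replicate 3). Summed TPM was 1518, 1301 and 1612 in Control and 1824, 1663 and 1721 in OcKO, while the sums as CPM overlapped, with a ratio of 1.04.

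**Figure D5:**
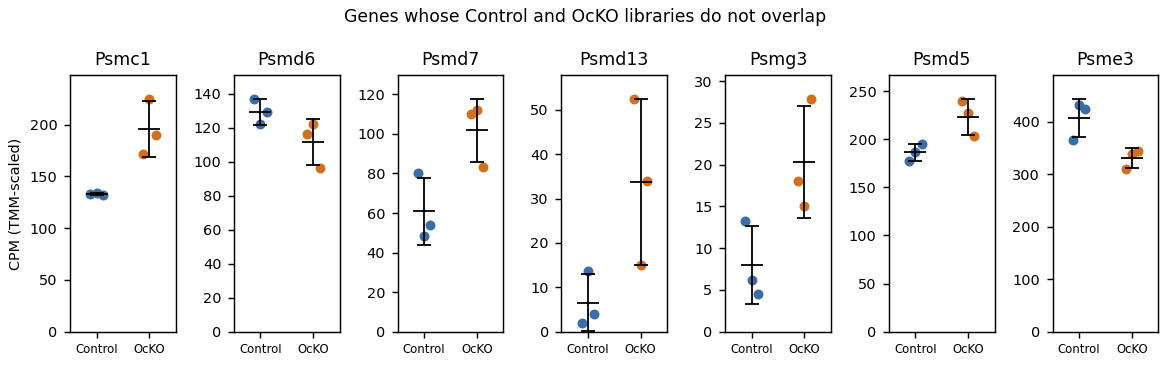
TMM-scaled CPM of the 7 proteasome genes whose Control and OcKO libraries do not overlap (points), with the mean and SD of 3 libraries (bars). Psmc1, Psmd7, Psmd13, Psmg3 and Psmd5 are higher in all OcKO libraries, and Psmd6 and Psme3 are lower; none was called by edgeR.

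The assembly factors had positive differences in 7 of 7 genes, with a median of 0.26 (0.42 without Control replicate 3), and none was called. Psmg3 (ENSMUSG00000029551, chromosome 5, 139823592 to 139826885, minus strand, GRCm38), which with Psmg4 helps to place alpha subunits in the ring, was at 13.3, 6.14 and 4.58 CPM in Control and 18.1, 15.1 and 27.9 CPM in OcKO. The groups did not overlap, and the log2 fold change was 1.35 (SE 0.53, 95% interval 0.11 to 2.59, edgeR adjusted p = 0.401). Its partner Psmg4 was at 16.1, 21.4 and 14.3 CPM against 13.8, 15.8 and 26.8 CPM (0.13, SE 0.40), and only OcKO replicate 3 was above the Control range. Psmg1, the alpha-ring chaperone that works with Psmg2, was at 38.0, 51.7 and 46.2 CPM against 45, 52.2 and 59.6 CPM (0.20, SE 0.24, edgeR adjusted p = 0.838). Psmg2 was far lower, with 85, 1 and 58 counts in Control and 94, 93 and 82 counts in OcKO. Control replicate 2, at 1 count, sets its wide interval, from -2.40 to 3.64 on the log2 scale. The chaperones of the ATPase ring were closer together. Psmd5 was at 177, 187 and 195 CPM against 240, 227 and 203 CPM, without overlap (0.26, SE 0.16, edgeR adjusted p = 0.63). Psmd9 was at 102, 119 and 154 CPM against 158, 147 and 179 CPM (0.37, SE 0.21, edgeR adjusted p = 0.601), and 24.7% of its 50-base stretches also belong to Gm26745 on the other strand. Summed TPM of the 7 genes was 485.0, 457.4 and 569.1 in Control and 597.9, 655.4 and 704.2 in OcKO, a ratio of 1.30, and the sums as CPM did not overlap either, with a ratio of 1.22.

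The activators were dominated by 1 gene. Psme3, the nuclear activator that opens the core without ubiquitin or ATP, was at 365, 433 and 424 CPM in Control and 310, 338 and 345 CPM in OcKO. Its OcKO libraries all lay below the Control libraries, with a log2 fold change of -0.30 (SE 0.16, 95% interval -0.66 to 0.06, edgeR adjusted p = 0.557). As TPM they overlapped, at 364, 386 and 409 against 327, 347 and 369. Psme3 ranked 5th of the 48 members by TPM in Control and 10th in OcKO. The interferon-linked activator genes were low: Psme1 was at 0.514, 0.691 and 0.852 TPM in Control and 0.225, 1.51 and 5.30 TPM in OcKO, and Psme3 exceeded it by 69.5-fold to 1450-fold. The log2 fold change of Psme1 was 1.61 (SE 1.18, edgeR adjusted p = 0.717), rested largely on OcKO replicate 3, and ranged from 0.21 to 2.13 with 1 library left out. Psme2, its partner in the same ring, was at 21.8, 8.34 and 18.1 TPM against 30.9, 17.3 and 21.5 TPM (0.41, SE 0.49), and 28.3% of its 50-base stretches also occur in Psme2b. Psme1 and Psme2 thus differed in level by over 4-fold in every library although they form 1 complex. Psme4, an activator linked to chromatin, had a value of 0.04 (SE 0.19). The inhibitor Psmf1 was at 394, 307 and 476 CPM in Control and 357, 353 and 380 CPM in OcKO, all within the Control range (-0.11, SE 0.20, edgeR adjusted p = 0.908; 0.06 with scaling by library size alone).

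The order of the members by level was nearly the same in both groups. Ranks of 46 of the 48 genes by mean TPM differed by 5 or fewer places, and Spearman's rho across the 48 genes was 0.984, a description over genes that share libraries. The leading genes were Psma2, Psmb2 (577 and 677 TPM), Psmc5 (469 and 592 TPM) and Psmb1 (445 and 507 TPM) in both groups. Psmd1 moved most, from 24th to 32nd. Neighbours in the order mostly differed by less than their spread: Psmb1 was at 462, 361 and 511 TPM and Psmc5 at 547, 389 and 473 TPM in Control. Among libraries, 17 of the 48 genes had their highest CPM in OcKO replicate 2 and 13 in OcKO replicate 3, while 14 had their lowest in Control replicate 2 and 13 in Control replicate 1. On chromosome 11, which carries Rpa1, lie 8 of the members, from 4.77 to 44.42 Mb away. Their log2 fold changes ran from -0.30 to 0.34, with 6 of 8 positive.

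Genes that act with the proteasome were taken from lists by role, and none of their members was called by edgeR. Among 10 other proteasome parts and chaperones the median log2 fold change was 0.03, with 5 positive and 5 negative. The lowest p was that of AI314180 (the Ecm29 gene, a clamp between core and cap), at 602, 605 and 414 CPM in Control and 420, 300 and 319 CPM in OcKO (-0.64, SE 0.22, edgeR adjusted p = 0.322). Akirin2, which brings proteasomes into the nucleus, was at 80.7, 81.2 and 68.4 CPM against 49.1, 78.8 and 52.4 CPM (-0.35, SE 0.25, edgeR adjusted p = 0.703), with OcKO replicate 2 inside the Control range. The 10 ubiquitin enzymes and shuttles that bind the proteasome had a median of -0.22, with 3 positive and 7 negative. Usp14, the deubiquitinase on the cap, was at 81.9, 63.4 and 108 CPM against 174, 183 and 108 CPM (0.87, SE 0.29, edgeR adjusted p = 0.297), with OcKO replicate 3 level with Control replicate 3. Ddi2, the protease that activates NRF1, was at 169, 87.8 and 77.3 CPM against 36.5, 54.3 and 78.2 CPM (-0.98, SE 0.39, edgeR adjusted p = 0.41).

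In the remaining lists no gene was called by edgeR, and the directions differed between lists. Regulators of proteasome genes had 1 positive and 7 negative values of 8 (median -0.30). Nfe2l1, which encodes NRF1, the factor that raises proteasome genes when the proteasome is inhibited, was at 389, 419 and 352 CPM in Control and 363, 206 and 211 CPM in OcKO (-0.57, SE 0.25, edgeR adjusted p = 0.464). Nfya, a subunit of the factor that binds CCAAT boxes, was at 94.7, 56.6 and 61.4 CPM against 37.1, 46.8 and 51.6 CPM (-0.65, SE 0.28, edgeR adjusted p = 0.449), without overlap. Of 6 ubiquitin and E1 genes, Uba1, the main ubiquitin-activating enzyme, was at 528, 452 and 569 CPM against 370, 314 and 359 CPM (-0.57, SE 0.17, edgeR adjusted p = 0.239), with all OcKO libraries below Control. The ubiquitin gene Ubb was at 3340, 4250 and 4670 CPM against 3070, 2730 and 3400 CPM (-0.41, SE 0.18, edgeR adjusted p = 0.468). The 6 genes had a median of -0.07, with 3 positive and 3 negative. Genes of the VCP segregase, which extracts ubiquitylated proteins for the proteasome, had 6 positive and 2 negative values (median 0.35). Ufd1, a VCP adaptor, was at 11.2, 12.9 and 17.6 CPM against 25.2, 26.8 and 23.1 CPM, without overlap (0.85, SE 0.33, edgeR adjusted p = 0.401). Ubxn1, another VCP partner, was at 37.7, 27.5 and 24.8 CPM against 52.6, 26.5 and 57.6 CPM (0.60, SE 0.36, edgeR adjusted p = 0.63), with OcKO replicate 2 inside the Control range. Among 6 tested MHC class I genes, downstream of the immunoproteasome, 3 were positive and 3 negative. Tap1, the peptide transporter gene beside Psmb9, was at 0.276, 0.396 and 0.202 CPM against 4.64, 0.396 and 0.320 CPM (2.60, SE 1.29, edgeR adjusted p = 0.527), so 1 library, OcKO replicate 1, was high. B2m, the light chain of MHC class I, was at 18.7, 18.9 and 17.8 CPM against 27.3, 33.5 and 20.6 CPM, without overlap (0.55, SE 0.31, edgeR adjusted p = 0.596).

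Promoter sequence was examined for motifs of factors known to act on proteasome genes. RefSeq promoter windows (GRCm38.p6, 250 bases before the start to 50 after it) were found for 40 of the 48 members and searched on both strands. The core of the antioxidant response element, TGACNNNGC, which NRF1 and NRF2 bind, occurred in 5 of 40 members (12.5%), against 11.5% of all genes with a window and 13.6% of those tested here. The CCAAT box was in 14 (35.0%, against 37.5% and 40.3%). The ETS motif CCGGAAG was in 12 (30.0%, against 7.8% and 14.7%). The interferon element (ISRE) was in 3 (7.5%, against 3.5% and 3.1%), namely Psmb3, Psmd4 and Psmd9. It was absent from the windows of Psmb8, Psmb9, Psmb10, Psme1 and Psme2. The STAT motif TTCNNNGAA was in 2 (5.0%, against 8.1% and 7.3%), Psmb8 and Psmg1. Each motif was counted on its own, also where matches of different motifs overlap. A match is a description of the letters, not a bound site.

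The promoters below show these motifs in genes described above, and the choice was made after their values were seen: Psmc1, called by DESeq2, with a CCAAT box and an ETS motif; Psmc6, from the same ATPase ring with a difference near 0, with an ETS motif and a response element core; and the catalytic genes Psmb5 and Psmb6, each with a response element core. Exon bases were left out, capitals mark the motifs on either strand, and the sequences read 5′ to 3′ on the gene's strand. They lie at chr12:100109952-100110185 (plus), chr14:45329574-45329823 (plus), chr14:54617996-54618245 (minus) and chr11:70525107-70525356 (plus) of GRCm38.p6.
Psmc1: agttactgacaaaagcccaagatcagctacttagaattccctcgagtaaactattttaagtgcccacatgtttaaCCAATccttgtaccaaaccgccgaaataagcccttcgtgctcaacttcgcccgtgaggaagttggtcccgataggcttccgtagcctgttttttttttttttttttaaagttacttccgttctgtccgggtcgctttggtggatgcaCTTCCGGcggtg
Psmc6: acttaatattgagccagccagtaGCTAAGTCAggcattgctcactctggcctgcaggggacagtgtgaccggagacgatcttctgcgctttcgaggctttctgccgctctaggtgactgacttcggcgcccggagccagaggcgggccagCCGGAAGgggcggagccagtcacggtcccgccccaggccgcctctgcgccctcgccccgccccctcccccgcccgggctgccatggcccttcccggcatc
Psmb5: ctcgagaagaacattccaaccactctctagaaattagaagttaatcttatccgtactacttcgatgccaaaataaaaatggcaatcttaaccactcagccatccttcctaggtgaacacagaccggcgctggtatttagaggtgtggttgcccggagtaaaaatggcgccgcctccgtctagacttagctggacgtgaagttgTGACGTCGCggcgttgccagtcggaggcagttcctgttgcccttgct
Psmb6: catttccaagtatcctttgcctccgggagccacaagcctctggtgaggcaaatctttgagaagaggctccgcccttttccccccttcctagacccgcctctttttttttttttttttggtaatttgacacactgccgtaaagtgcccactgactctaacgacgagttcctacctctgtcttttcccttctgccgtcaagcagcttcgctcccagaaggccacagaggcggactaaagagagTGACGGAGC
The Psmb6 element ends at the base before the RefSeq start of the gene, and that of Psmb5 lies in the part of its window nearest the start. Both genes had positive log2 fold changes below 0.35 that were not called, and Psmc1 and Psmc6, which share the ETS motif, had values of 0.56 and 0.05. The windows of Psmd13, also called by DESeq2 (2.36), and of Psmg3 (1.35) held none of the motifs searched and are not printed.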

How the data were processed

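RNA from GV oocytes of 3 Control and 3 Rpa1 OcKO mice was sequenced after library preparation with a low-input kit, per the labels' protocols. The authors deposited raw counts per gene; per the submitters' processing notes, Trimmomatic 0.36, STAR 2.5.2b and featureCounts of Subread 1.5.2 were used with the build GRCm38. Not given in the sources used here are the annotation release, strand setting and treatment of multiply mapping reads. The series table and the files per sample differed in 0 values.

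Counts were tested with edgeR 4.0.16 in R 4.3.3 (TMM, filterByExpr, glmQLFit and glmQLFTest), with Benjamini-Hochberg adjustment over 16060 genes and a threshold of 0.05. The standard error (SE) is the size of the log2 fold change divided by the root of the F statistic, and 95% intervals use the test's degrees of freedom. TPM used the exonic length in the deposited files. The alternatives were DESeq2 1.42.0, limma 3.58.1 with voom, other scalings and filters, a replicate block and leaving out each library. Sharing between genes was the percentage of 50-base windows of a gene's GENCODE M21 transcripts found in another gene. The scripts were tested on simulated data. The 95% intervals include the spread between libraries of a group. The floor of Psma8 covers counting error only, and without molecular identifiers reads are not independent molecules.

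The members, role classes and lists were chosen with earlier results of these data known. Full values are given for the 2 genes with the smallest p in each class (1 in classes of 1 or 2), each immunoproteasome and tissue-specific gene and, in the other lists, the 2 with the smallest p. Genes named beyond this rule, such as Psmb5, Psmd1, Psmd6, Psmd14, Psmg2 and Psmg4, were chosen after their values were seen.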

Additional observations from a re-analysis of the deposited data

How the results depend on the processing

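By DESeq2, 2 members were called (Psmd13 and Psmc1). None was called under any other scaling, filter, voom, the replicate block or any left-out library. Some of these fits called almost no gene: voom called 0 higher and 1 lower of 16060 genes. The fits with 1 library left out called 0 to 4 genes higher and 0 to 2 lower. In those, even Rpa1 had an edgeR adjusted p of up to 0.0959. The lack of calls in such fits therefore says little of the members. With library size alone the medians were 0.32 for all members, 0.36 for the core, 0.22 for the regulatory particle, 0.43 for assembly, 0.37 for beta subunits, 0.28 for ATPases and 0.22 for non-ATPases. The median of the core assembly factors was 0.82 with voom and 0.82 with the replicate block, against 0.41. Summed CPM in place of TPM gave log2 ratios of 0.11 for all members (0.27 as TPM), 0.10 for the regulatory particle, 0.18 for beta subunits, 0.19 for ATPases, 0.05 for non-ATPases and -0.20 for activators. Leaving out 1 library moved the medians of the regulatory particle between 0.08 and 0.22, of alpha subunits between 0.11 and 0.37, of assembly between 0.22 and 0.42, of ATPases between 0.07 and 0.24 and of non-ATPases between 0.08 and 0.18, with the values furthest from the main ones without Control replicate 3 or OcKO replicate 3 in each. Directions reversed for Psmb11 (library size alone 0.05, voom 0.63, replicate block 0.62, -0.69 to 1.09 over the left-out libraries, positive without Control replicate 2), Psmf1 (library size alone 0.06, -0.23 to 0.07, positive without Control replicate 3), Psmb8 (-0.94 to 0.03, positive without OcKO replicate 1) and Psmb10 (-1.09 to 1.72, negative without Control replicate 2 or 3 or OcKO replicate 1). The cause was not tested. No immunoproteasome median exists with a minimum of 5 CPM, since no subunit passed. The labels number the mice but do not pair them. Deviations from the group means had correlations of -0.037, -0.0448 and -0.045 between same-numbered libraries and 0.0135 to 0.0309 between the others. Such values cannot show whether mice were matched. With the replicate block 34 members were positive, with a median of 0.20, and no gene of all tested was called. Few counts limit Psma8 (0 to 2 counts per library) and the immunoproteasome genes (4 to 107 counts). Libraries of a group also differed: in Control, Psmb10 held 98, 7 and 18 counts and Psmg2 held 85, 1 and 58. Control replicate 2, with the 1 count of Psmg2, was the deepest Control library (41402926 counts). The cause of these differences was not tested.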
